A study of Mus musculus with 4 samples.

Results

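The variable segments of the immunoglobulin kappa light chain (Igkv) were followed in RNA-seq counts from resting B220+ splenocytes. Mice were either MIZ-1 WT or MIZ-1 △POZ, called WT and △POZ from here on. Members were all genes of the count table whose symbol in the GENCODE annotation of GRCm38 (mm10) begins with Igkv, whose biotype is a functional immunoglobulin V gene, and which had at least 10 counts in at least 2 of the 4 libraries. This left 92 segments of 41214 genes in the table and of 14554 genes that passed the same filter. The annotation lists 100 such segments, of which 97 were in the table, and 5 of these stayed under the filter (Igkv1-131, Igkv1-35, Igkv8-26, Igkv13-85 and Igkv4-62, with 0 to 20 counts per library). The filter was met in all 4 libraries by 87 members, and 0 members passed it through the libraries of 1 genotype alone.

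In △POZ mice, MB1-Cre, in which Cre is expressed from the Cd79a locus from early B cell stages, removes the POZ domain of MIZ-1 (Zbtb17) from a floxed allele in B cells. The controls were wild type for MIZ-1, and whether they carried Cre was not stated for these libraries. All lines were on a C57BL/6 background and the study used young adult animals. Cells were enriched from spleen by magnetic selection for B220 and were not stimulated, and each genotype had 2 biological replicates. Gene counts per library summed to between 43026814 and 46387209. Zbtb17 itself had 2087 and 1946 counts in WT and 1774 and 1669 in △POZ, which gives a log2 fold change of -0.32. Since counts cover all exons together, they do not show the loss of the exons for the POZ domain. Cd79a, the locus that drives Cre, had 14668 and 13089 counts in WT and 4891 and 5939 in △POZ. Xist had 49 and 60 counts in WT and 38145 and 40838 in △POZ, and 4 Y-linked genes were higher in both WT libraries, so that sex and genotype cannot be told apart in any comparison that follows.

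A kappa light chain is assembled in the bone marrow when the RAG recombinase joins 1 V segment to 1 of the J segments that lie just before the constant gene Igkc. Segments that point the same way as the J segments join by deletion of the DNA between them, whereas segments in the opposite orientation join by inversion. A cell can rearrange again to a more distant V and a more downstream J when its first receptor is non-functional or self-reactive, which is known as receptor editing. In mature B cells and plasma cells, the V segment that was joined is transcribed at a high level, so that V counts in a bulk library reflect both how many cells use a segment and how much light chain RNA each of them makes.

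The locus lies on chromosome 6, where the members span positions 67555497 to 70704177 of GRCm38. Igkj1 (70722562 to 70722599) and Igkc (70726435 to 70726966) follow on the plus strand. Of the members, 35 point the same way as Igkj1 and 57 the opposite way. Exons of a member together cover 338 to 501 bases, with a median of 362. All 92 coding sequences start with ATG and end shortly after a conserved cysteine codon, which opens the third complementarity-determining region (CDR3), the part of the chain that is completed by the join to a J segment. The coding ends of the segments on which the results turn are shown here as in the GENCODE transcripts, 5′ to 3′ on the coding strand, with the cysteine codon in capitals.

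Igkv3-4: TGTcagcaaagtaatgaggatcctcc
Igkv3-2: TGTcagcaaagtaaggaggttcctcc
Igkv3-1: TGTcagcaaagtaggaaggttccttc
Igkv3-7: TGTcagcacagttgggagattcctcc
Igkv5-39: TGTcaaaatggtcacagctttcctcc
Igkv14-111: TGTctacagtatgatgagtttcctcc
Igkv14-126: TGTctacagcatggtgagagccctcc
Igkv14-130: TGTctacagttttatgagtttcctcc
Igkv14-100: TGTgtacagtatgctcagtttcctcc
Igkv10-96: TGCcaacagggtaatacgcttcctcc
Igkv12-46: TGTcaacatttttggggtactcctcc
Igkv6-15: TGTcagcaatataacagctatcctct
Igkv8-30: TGTcagcaatattatagctatcctcc
Igkv4-57: TGCcagcaaaggagtagttacccaccca
Igkv4-57-1: TGCcagcagtacagtggttacccactca
Igkv4-90: TGTcagcaaaggagtagttacccaccca

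Coding ends were alike within families, and the 92 members had 82 distinct ends. The cysteine codon was TGT in 60 members and TGC in 32, and 21 of the 25 members of family 4 had TGC. The letters CCTCC closed the coding end of 39 members, none of them from family 4, and together these 39 took 58.0% of the Igkv counts as a mean over libraries. In family 4, 11 of the 25 members ended in CCACCCA. Igkv3-4 and Igkv3-5 had the same end.

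This likeness can bear on the counts, since reads without a unique alignment were not assigned to genes. They made up 42.8% to 44.1% of the whole table in each library, and what part of them came from Igkv is not known. Of the 50-base windows of each member's transcript, between 0% and 74.3% also occurred in another Igkv transcript, with a median of 24.8%, and 23 members shared none. The nearest other member by coding sequence was at 93.8% identity in the median, from 66.4% to 98.6%, and it belonged to the same family for 85 of the 92 members. The last 60 coding bases of several pairs show how close the neighbours are, with the bases at which a pair differs in capitals.

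Igkv3-4: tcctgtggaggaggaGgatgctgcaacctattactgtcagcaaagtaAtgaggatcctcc
Igkv3-3: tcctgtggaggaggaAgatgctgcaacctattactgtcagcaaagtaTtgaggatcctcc
Igkv3-2: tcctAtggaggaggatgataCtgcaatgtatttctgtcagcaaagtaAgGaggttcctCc
Igkv3-1: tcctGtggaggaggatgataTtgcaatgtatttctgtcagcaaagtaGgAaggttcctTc
Igkv5-39: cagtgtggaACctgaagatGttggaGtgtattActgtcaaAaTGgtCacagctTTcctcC
Igkv5-45: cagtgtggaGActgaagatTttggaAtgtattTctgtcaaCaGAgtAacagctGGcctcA
Igkv14-111: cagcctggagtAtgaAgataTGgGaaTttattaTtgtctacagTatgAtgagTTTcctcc
Igkv14-126: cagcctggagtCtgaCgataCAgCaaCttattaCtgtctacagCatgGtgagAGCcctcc

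Igkv3-4 and Igkv3-3 differed at 2 of these 60 bases, Igkv3-2 and Igkv3-1 at 5, and the other pairs at 12 each. Igkv5-39, Igkv14-111 and Igkv14-130 shared 0% of their windows with another Igkv transcript, Igkv3-4 34.1%, Igkv3-2 21.3% and Igkv3-1 14.2%. Counts of segments with shared windows are therefore uncertain, and the split of their reads between near copies cannot be recovered from the table.

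The summed Igkv level was higher in △POZ. Over all members, the 2 WT libraries held 36545 and 42959 counts and the 2 △POZ libraries 78436 and 75473. As CPM, that is counts scaled to a common library total with TMM normalization, this was 930 ± 130 CPM (SD, n = 2) in WT and 1684 ± 50.6 in △POZ, a ratio of 1.81. The libraries of the genotypes did not overlap, and with 2 libraries each no test of this sum was made. In bulk samples, fewer cells of a type and less RNA per cell cannot be told apart, which holds for every level given here. Igkc, the constant gene that every kappa chain shares, had 38850 and 48396 counts in WT and 82373 and 83177 in △POZ. Its log2 fold change was 0.83 (SE 0.13, adjusted p = 0.00587 by the quasi-likelihood test of edgeR, adjusted after Benjamini-Hochberg over all tested genes). Per Igkc count, the members gave 0.941 and 0.888 counts in WT and 0.952 and 0.907 in △POZ, and the genotypes overlapped. The J segments Igkj1 to Igkj5 had 0 counts in every library although each kappa transcript carries a J segment, so J usage could not be read from this table.

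The ratio of the kappa sum lay between those of the heavy chain and the lambda segments. The 92 tested Ighv genes went from 776 ± 110 CPM (SD, n = 2) to 1717 ± 75, a ratio of 2.21. Of these genes 66 were called higher, against 21.1% of all tested genes. The 3 tested Iglv genes, which encode the lambda variable regions, went from 194 ± 28.0 to 231 ± 15.3 CPM, a ratio of 1.19. Among them, Iglv1 had a log2 fold change of 0.48 (adjusted p = 0.00622) and Iglv3 one of -0.76 (adjusted p = 0.00561), while Iglv2 at 0.51 was not called (adjusted p = 0.147, all from edgeR's quasi-likelihood test). Iglc2, a lambda constant gene, fell, with 26709 and 24394 counts in WT and 21836 and 20856 in △POZ. Its log2 fold change was -0.35 (SE 0.05, adjusted p = 0.00528 by edgeR's quasi-likelihood test). Values for Iglc1 and Iglc3 were not available here, so Iglc2 does not stand for all lambda chains. The differences between the ratios of the 3 loci were not tested.

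Marker lists of several cell states differed between the genotypes alongside the Igkv sum. Over all tested genes, 21.1% were called higher and 18.9% lower. Of 12 plasma cell markers, 9 were higher and 1 was lower, and their summed level was 1457 to 1802 CPM in WT and 3207 to 3325 CPM in △POZ. Most of this rise was Jchain, which encodes the joining chain of secreted IgM and IgA, and the other 11 markers summed to 1154 to 1186 CPM in WT and 1377 to 1420 CPM in △POZ. All 8 marginal zone B cell markers were higher (2893 to 2908 against 3642 to 3909 CPM), and 4 of 6 follicular B cell markers were lower (1982 to 2103 against 1557 to 1679 CPM). Of 7 germinal center markers, 6 were higher and 1 was lower. The lower one was Bcl6, with a log2 fold change of -1.36 (named after its value was seen). Of 6 B-1 cell markers 4 were higher, and all 4 tested transitional B cell markers were lower. All 16 macrophage markers were higher, with summed levels of 981 to 1306 CPM in WT and 3646 to 5831 CPM in △POZ. Of 10 pan-B cell genes, 8 were lower, from 10606 to 10856 CPM down to 8594 to 9060 CPM. Of 21 tested markers of T cells, plasmacytoid dendritic cells, neutrophils and erythroid cells, 1 was called, Cd4, which was higher (named after its value was seen). In these lists no marker was at 0 in all libraries. The part of these cell types in the Igkv levels was not tested.

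Of the 92 members, 43 were called higher in △POZ and 1 was called lower at an adjusted p under 0.05, and 48 were not called. Among all 14554 genes tested, 21.1% were called higher and 18.9% lower, against 46.7% of the members called higher. The median log2 fold change of the members was 0.57, with quartiles at 0.16 and 1.01, while that of all tested genes was -0.01. The change was positive for 75 members and negative for 17, where 49.4% of all tested genes had a positive change. In 51 members the CPM of both △POZ libraries lay above those of both WT libraries, in 9 they lay below, and in 32 the genotypes overlapped. Over all tested genes, 37.2% lay above and 37.6% below. The number called higher was 20 without WT replicate 1 and 24 without WT replicate 2, and 19 of the 44 called members were called in each fit that left out 1 library. None of the 44 changed sign in any fit. Calls over all tested genes also became fewer without either WT library.

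**Figure D1:**
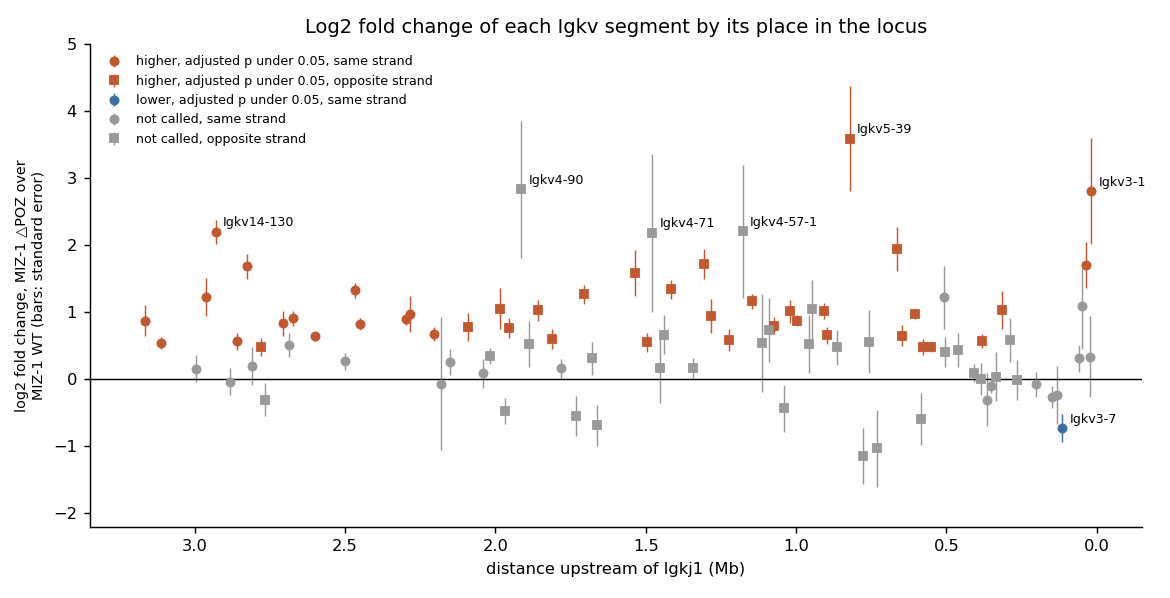
Log2 fold change of each of the 92 Igkv segments (△POZ over WT, bars are standard errors) against its distance upstream of Igkj1, with segments of the same orientation as Igkj1 as circles and the others as squares. The 43 segments called higher (red) lie along the whole locus, and Igkv3-7 (blue) is the only one called lower.

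The called members with the smallest p were taken among those without overlap between genotypes. That their libraries lay close together within each genotype follows in part from this choice. Igkv8-30 (chromosome 6, 70117061 to 70117620, minus strand) had 812 and 837 counts in WT and 1838 and 1622 in △POZ. Its log2 fold change was 0.97 (SE 0.07, adjusted p = 0.000999, edgeR). Igkv5-48 had 510 and 460 counts in WT and 967 and 928 in △POZ, a log2 fold change of 0.87 (SE 0.08). Igkv4-57 had 360 and 389 counts against 998 and 799, a log2 fold change of 1.16 (SE 0.11). All 3 were called in every fit that left out 1 library, and Igkv8-30 rose about as much as the Igkv sum, so that it took 2.09% of the Igkv counts in WT and 2.25% in △POZ as means of the libraries.

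All 4 members of family 14 rose, and 3 of them by more than the Igkv sum. Igkv14-111 (68256389 to 68256869, plus strand) is its most used member. It had 1452 and 1200 counts in WT and 4003 and 3126 in △POZ, a log2 fold change of 1.33 (SE 0.11, adjusted p = 0.00132, edgeR's quasi-likelihood test). Igkv14-130 had 52 and 61 counts against 296 and 260, a log2 fold change of 2.20 (SE 0.18). Igkv14-126 had 315 and 286 counts against 1266 and 808, a log2 fold change of 1.68 (SE 0.19). Igkv14-100 had 388 and 333 counts against 625 and 602, a log2 fold change of 0.67 (SE 0.10), below the 0.86 of the log2 ratio of the summed levels. In all 4 segments the lowest △POZ count was above the highest WT count, and all 4 were called whichever library was left out.

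A different pattern was seen in segments that were high in 1 library. Igkv5-39 (69900424 to 69900977, minus strand) had 402 and 380 counts in WT, 8805 in △POZ replicate 1 and 1509 in replicate 2. Its log2 fold change of 3.59 was the largest of the members, with an SE of 0.78 and an adjusted p of 0.0169 (edgeR's quasi-likelihood test), and it was 1.91 without △POZ replicate 1. The call was lost without either WT library and in the robust fit (adjusted p = 0.145). Igkv3-1, the segment nearest to Igkj1, had 167 and 157 counts in WT, 2139 in △POZ replicate 1 and 348 in replicate 2 (log2 fold change 2.81, SE 0.79, adjusted p = 0.0358 with edgeR's quasi-likelihood test). Without △POZ replicate 1 it was 1.07, and its call was likewise lost without either WT library. Igkv4-90 had 90 and 102 counts in WT and 1386 and 121 in △POZ, and at an adjusted p of 0.0736 it was not called by edgeR. In replicate 2 a different segment stood out, Igkv4-57-1, with 277 and 545 counts in WT, 396 in △POZ replicate 1 and 3546 in replicate 2, and it was not called (adjusted p = 0.127, edgeR). Igkv4-57-1 and the other members of this kind named in the next paragraph were chosen after their values were seen.

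Such gaps between the libraries of 1 genotype were common in the segments. More than 2-fold differences in CPM between replicates occurred in 8 of 92 members in WT and in 15 of 92 in △POZ. Among genes with a mean of at least 100 counts, 9.72% of 72 members and 0.457% of 11160 genes differed that much in WT, and 9 of 72 members and 0.582% of those genes did so in △POZ. In the WT libraries the widest gap was that of Igkv1-99, with 78 and 542 counts, and in △POZ that of Igkv4-71, with 6 and 90. All 8 segments of this kind in WT were higher in replicate 2. Of the members with such a gap in △POZ, Igkv5-39, Igkv3-1, Igkv4-90 and Igkv6-25 (1317 and 415 counts) were higher in replicate 1, while Igkv3-4, Igkv4-57-1, Igkv4-55 and Igkv4-71 were higher in replicate 2. Igkv1-99, Igkv4-57-1, Igkv4-55 and Igkv3-4 had such a gap in both genotypes and were higher in replicate 2 each time. In all, 19 members had such a gap in either genotype.

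**Figure D2:**
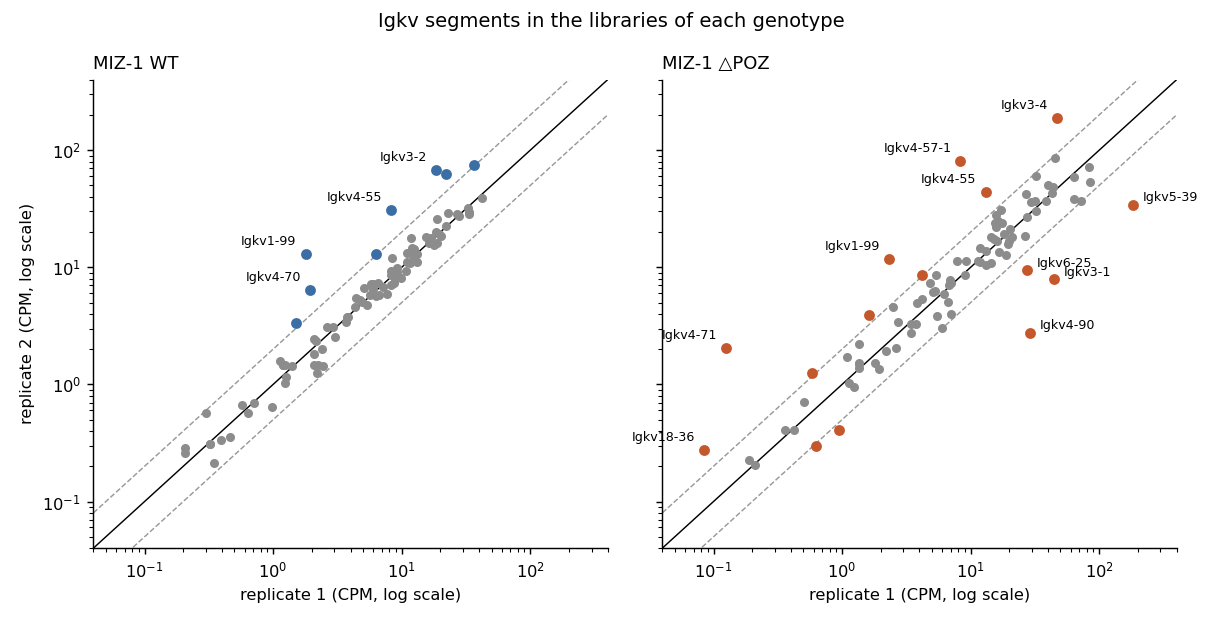
CPM of the 92 Igkv segments in replicate 2 against replicate 1 on log axes, for WT (left) and △POZ (right), with the line of equality and dashed lines at 2-fold. Coloured points differ by more than 2-fold between the libraries, 8 in WT and 15 in △POZ, and names are given for the widest gaps.

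Igkv3-7 (70607437 to 70608036, plus strand) was the single segment called lower. It had 468 and 393 counts in WT and 230 and 321 in △POZ, and no △POZ count reached a WT count. Its log2 fold change was -0.73 (SE 0.21, adjusted p = 0.0396, edgeR), and the call was lost without either WT library. Igkv12-38 had 66 and 142 counts in WT and 59 and 42 in △POZ, with a log2 fold change of -1.15 that was not called (adjusted p = 0.0747, edgeR). Igkv6-17 stayed at a like level, with 819 and 682 counts against 757 and 732 (log2 fold change -0.10), so that its share of the Igkv counts went from 1.91% to 0.968% while the sum rose.

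Usage was described as the share that a segment took of the summed member counts in its library. Levels of different segments were compared by count, since exon lengths were similar, and 9 of the 10 most used segments by count were also among the 10 most used per kb of exon. By the mean over the 4 libraries these 10 were, in order, Igkv3-4, Igkv10-96, Igkv12-46, Igkv14-111, Igkv3-2, Igkv5-39, Igkv6-15, Igkv1-135, Igkv2-137 and Igkv1-117. The order is not firm at the top, since Igkv3-4 took 4.34% (95% Wilson interval 4.14 to 4.55) and 7.26% (7.02 to 7.51) in WT and 2.87% (2.76 to 2.99) and 11.0% (10.8 to 11.3) in △POZ. These intervals cover counting error only, and the libraries of 1 genotype lay far outside each other's interval. Igkv3-4 had 1586 and 3119 counts in WT and 2255 and 8322 in △POZ, and its log2 fold change of 1.10 (SE 0.65) was not called (adjusted p = 0.227, edgeR), although it was with a replicate block (adjusted p = 0.0347, edgeR). The change of Igkv3-4 turned to -0.21 without △POZ replicate 2.

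The other much used segments fell into those that differed between genotypes and those that varied within one. Igkv10-96 had 1834 and 1643 counts in WT and 4050 and 2366 in △POZ (log2 fold change 0.78, SE 0.20). Igkv6-15 had 1426 and 1344 counts against 2157 and 3796 (1.03, SE 0.28), and Igkv2-137, the segment farthest from Igkj1, had 1226 and 1161 against 3043 and 1674 (0.87, SE 0.23). These 3 were called by edgeR (adjusted p = 0.0299, 0.0346 and 0.0296), and were not called by DESeq2's Wald test, in the robust fit or without either WT library. Igkv2-137 also overlaps the lincRNA Gm42889 on the same strand. Igkv1-135 had 1461 and 1252 counts in WT and 2081 and 2117 in △POZ, and Igkv1-117 had 1172 and 1203 against 2046 and 1906. Both rose (log2 fold changes 0.54 and 0.64, adjusted p = 0.00642 and 0.00185, edgeR) and took a smaller share in both △POZ libraries. Igkv12-46, with 967 and 2653 counts in WT and 3029 and 2607 in △POZ, and Igkv3-2, with 812 and 2862 against 3445 and 1619, overlapped between genotypes and were not called.

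**Figure D3:**
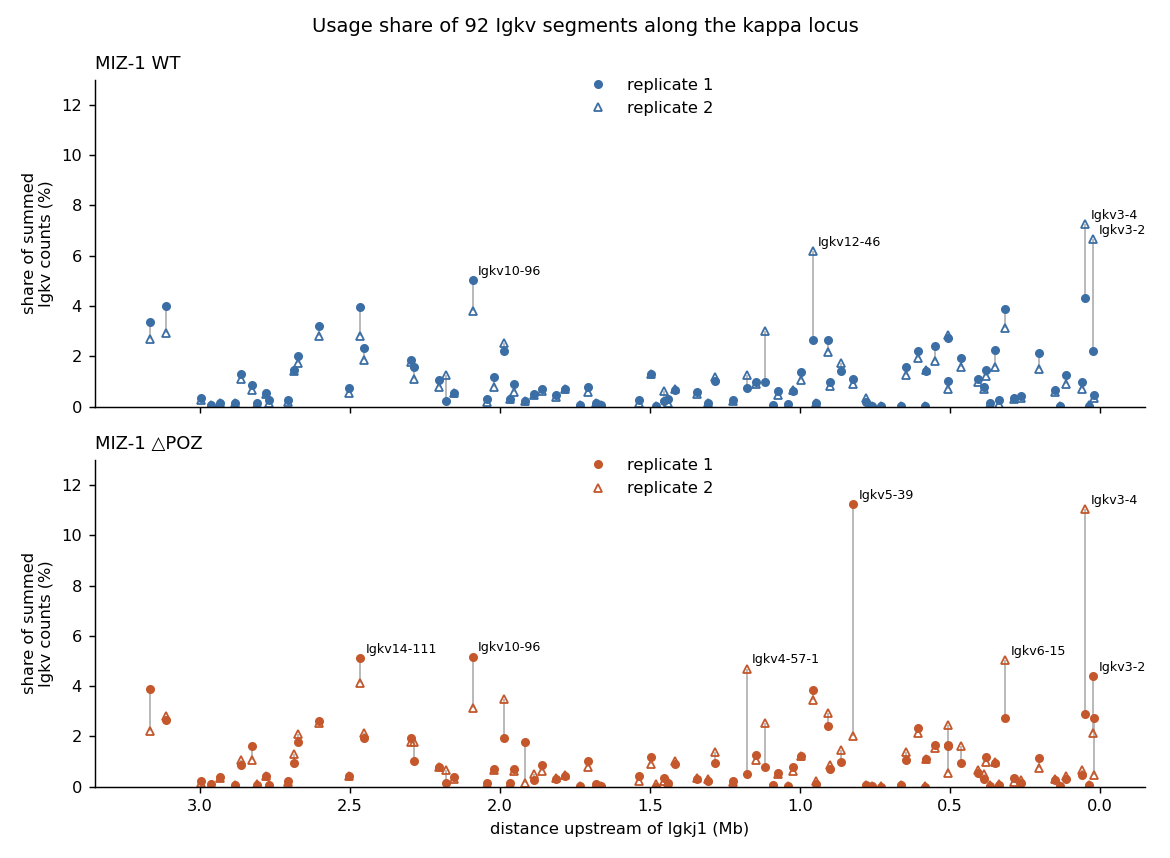
Share of the summed Igkv counts of each segment (percent) against its distance upstream of Igkj1, with filled circles for replicate 1, open triangles for replicate 2 and a line between them, in WT (top) and △POZ (bottom). Igkv5-39 in replicate 1 and Igkv3-4 in replicate 2 of △POZ reach about 11% each, more than any segment in WT, and segments of high and low share lie next to each other along the locus.

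The spread of shares was wide. In all 4 libraries, 21 members took over 1% and 32 took under 0.5%. Relative to the sum, 10 members lay higher in both △POZ libraries, 40 lay lower and 42 overlapped. The same count was not made over all tested genes, so these numbers are a description and not a trait of the segments. Shares within a library have a fixed sum, so segments with a very high share, such as Igkv5-39 and Igkv3-4, lower those of all others. By CPM, 75 of the 92 members had a positive log2 fold change. When libraries were scaled to the summed Igkv counts, 13 members were called higher and 31 lower with edgeR, but this scaling calls 79.3% of all tested genes, 5.96% higher and 73.3% lower, since most genes did not rise with the Igkv sum. Adjustment over all genes is then lenient, and the largest unadjusted p among the called members was 0.0388, so these calls were read only as a description. Without △POZ replicate 1, 5 members were called higher and 7 lower, and without △POZ replicate 2 the numbers were 7 and 16, while calls over the whole table fell from 11539 to 3404 and 3990. By this scaling the 3 members with the smallest p were Igkv5-39, Igkv3-1 and Igkv4-90 on the higher side and Igkv3-7, Igkv12-38 and Igkv6-17 on the lower side.

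Fewer segments made up most of the counts in △POZ. The effective number of segments, which is the number of equally used segments with the same Shannon diversity, was 57.6 and 51.8 in WT and 47.1 and 47.9 in △POZ. By the inverse Simpson index, which gives more weight to the most used segments, it was 45.0 and 36.2 against 30.3 and 31.2. The 10 most used segments of a library took 35.8% and 41.4% of the counts in WT and 44.6% and 43.3% in △POZ. The most used one was Igkv10-96 (5.02%) and Igkv3-4 (7.26%) in the WT libraries and Igkv5-39 (11.2%) and Igkv3-4 (11.0%) in the △POZ libraries. The median segment took 0.732% and 0.656% against 0.555% and 0.579%. Genotypes did not overlap in any of these measures, but for both effective numbers and for the 10 most used segments the gap between the WT libraries was wider than that between the nearest libraries of the 2 genotypes. Without the 19 members that differed over 2-fold between replicates, the effective number by Shannon diversity was 48.2 and 48.2 in WT and 44.0 and 44.4 in △POZ.

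**Figure D4:**
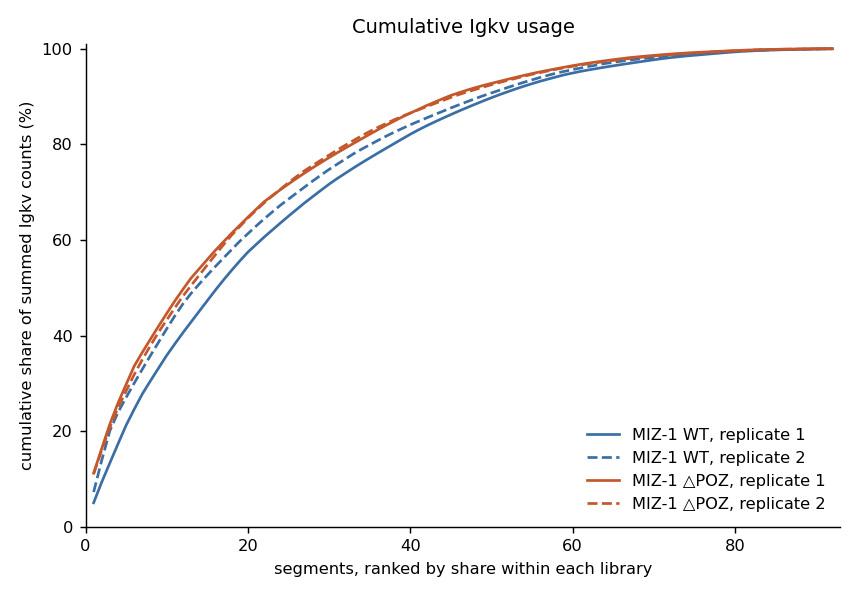
Cumulative share of the summed Igkv counts (percent) over the 92 segments, ranked by share within each of the 4 libraries. Both △POZ curves run above both WT curves over the 10 most used segments, at 44.6% and 43.3% against 35.8% and 41.4%.

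Across segments, log2 shares correlated at 0.958 between the WT libraries, at 0.905 between the △POZ libraries and at 0.885 to 0.942 between libraries of different genotypes (Pearson's r over 92 segments, which share libraries and are not independent replicates). △POZ replicate 2 correlated at 0.926 and 0.942 with the WT libraries, more than with the other △POZ library. Of the 10 most used segments by genotype mean, 8 were the same in both genotypes.

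The 92 members belong to 19 V families, named by the number before the hyphen. Family 3 took the largest share in WT, at 15.1% ± 4.18 (SD, n = 2) with 9 members, and 14.1% ± 2.56 in △POZ. Family 4, the largest with 25 members, took 12.8% ± 1.23 and 14.7% ± 2.67. In both families the libraries of the genotypes overlapped. Of the family 4 members 12 were called higher, with a median log2 fold change of 0.74. Of the family 3 members 2 were called higher and 1 lower, with a median of 0.31. Over all members 46.7% were called higher, and over all tested genes 21.1% were called higher and 18.9% lower.

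Families 14 and 5 took larger shares in both △POZ libraries, as did the 1 segment of family 7, the little used Igkv7-33. Family 14 took 6.04% and 4.38% in WT and 7.89% and 6.35% in △POZ, with a median log2 fold change of 1.51 over its 4 members. Family 5 took 3.66% and 2.96% in WT and 13.3% and 4.33% in △POZ. The gain of family 5 came from Igkv5-39, whose mean share went from 0.992% to 6.61%, and without members that differed over 2-fold between replicates it was 0.116 percentage points in place of 5.51. For family 14 the same step gave a gain of 3.51 percentage points in place of 1.92, although it removed no member of this family. The members kept held 84.6% and 70.4% of the Igkv counts in WT and 69.1% and 71.0% in △POZ. The larger gain of family 14 thus came from the changed sum and not from its own counts.

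Families 8, 1 and 17 took smaller shares in both △POZ libraries although some of their members rose, and so did families 13, 11 and 18 with 1 segment each, none of which was called. Family 8 went from 11.1% ± 0.931 (SD, n = 2) to 8.87% ± 0.336 with 4 of 8 members called higher, and family 1 from 10.6% ± 0.844 to 8.99% ± 0.334 with 6 of 8 called higher. Their median log2 fold changes were 0.44 and 0.73, beside a median of 0.57 over all members. The log2 ratio of the summed levels, 0.86, weights segments by their counts and is not a median over segments. Of all members 46.7% were called higher, and of all tested genes 21.1%. The loss of share of family 1 shrank from 1.59 to 0.423 percentage points without the members that differed over 2-fold between replicates. These include Igkv1-99 of family 1, and removing those of other families also changed the sum that shares are taken of. Families 6, 12 and 10 took 11.0%, 9.68% and 5.65% in WT and 9.39%, 8.35% and 4.97% in △POZ, and their libraries overlapped.

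**Figure D5:**
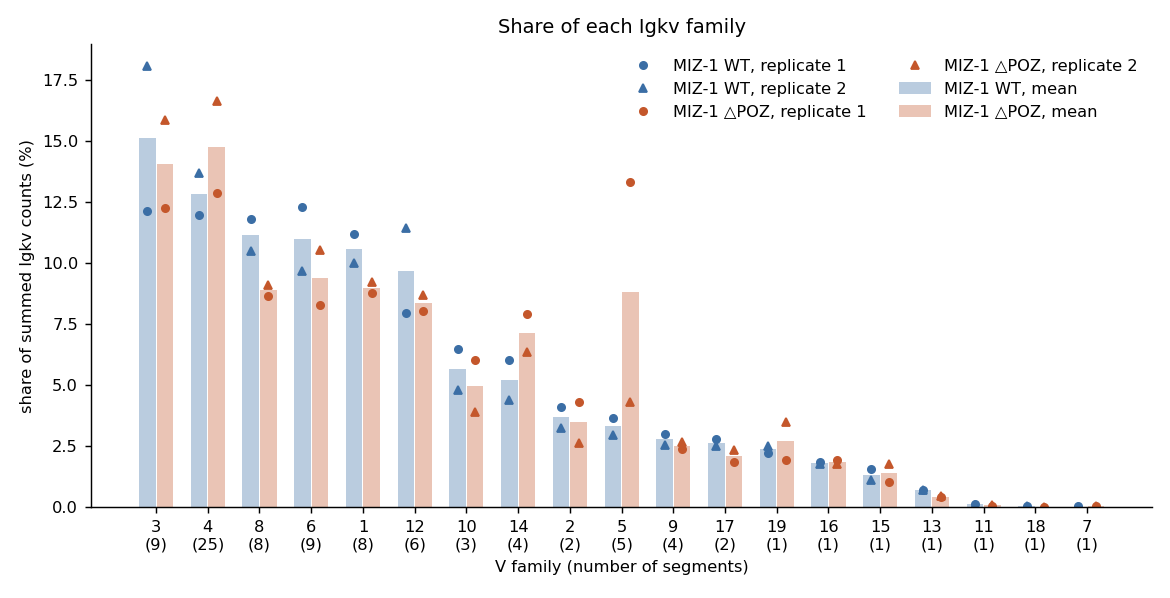
Share of the summed Igkv counts (percent) taken by each of the 19 V families, with the number of segments in parentheses, bars for the mean of 2 libraries, circles for replicate 1 and triangles for replicate 2. Family 14 lies higher in both △POZ libraries, families 8 and 1 lie lower, and the mean of family 5 in △POZ rests on 1 library at 13.3%.

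By position, 19 members lay within 0.5 Mb of Igkj1, of which 4 were called higher and 1 lower, where 21.1% of all tested genes were called higher and 18.9% lower. The median log2 fold change in this window was 0.09, whereas in windows of 0.5 Mb farther out the medians lay between 0.54 and 0.77. From 0.5 to 1 Mb, 9 of 18 members were called higher, from 1 to 1.5 Mb 8 of 16, from 1.5 to 2 Mb 6 of 13, from 2 to 2.5 Mb 6 of 10, from 2.5 to 3 Mb 8 of 14, and beyond 3 Mb 2 of 2. No test of the difference between windows was made. The share of the nearest window was nonetheless variable, at 24.8% and 28.1% in WT and 19.6% and 26.3% in △POZ, and the genotypes overlapped. Its most used segments, Igkv3-4 and Igkv3-2, were among those that differed over 2-fold between replicates.

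In the nearest window, Igkv3-7 fell, while Igkv6-17 at -0.10 and Igkv3-10 at -0.27 were not called. Among the members called higher there, Igkv6-15 rose by 1.03 and Igkv3-1 by 2.81. Without △POZ replicate 1 the change of Igkv3-1 was 1.07. Igkv3-3 rose as well, from few counts. Igkv3-3 had 13 and 24 counts in WT and 2 of its last 60 coding bases differ from those of the much used Igkv3-4. The count-weighted mean distance of the used segments from Igkj1 was 1418 and 1272 kb in WT and 1391 and 1309 kb in △POZ. The genotypes overlapped, and the difference of their means was 4.48 kb, less than the spread between replicates of either.

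Segments in the opposite orientation to Igkj1 took 53.8% and 53.8% of the counts in WT and 57.2% and 55.9% in △POZ. This gain of 2.81 percentage points was 0.677 without the members that differed over 2-fold between replicates, among which Igkv5-39 lies in the opposite orientation, and 3.79 without Igkv3-4, which lies in the same orientation. Of 57 segments in the opposite orientation 27 were called higher, with a median log2 fold change of 0.59. Of 35 in the same orientation 16 were called higher and 1 lower, with a median of 0.54. Over all members 46.7% were called higher, and over all tested genes 21.1% were called higher and 18.9% lower.

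Of 12 listed genes of V(D)J recombination and end joining, 11 were tested, of which 2 were higher and 1 was lower, with a median log2 fold change of 0.06, where 21.1% of all tested genes were called higher and 18.9% lower. Rag1, the catalytic subunit of the recombinase, had 48 and 85 counts in WT and 25 and 29 in △POZ (log2 fold change -1.39, SE 0.37, adjusted p = 0.0315, edgeR's quasi-likelihood test). Rag2 had 0 to 6 counts per library and was not tested. Hmgb2, a chromatin protein that bends DNA at recombination signals and is also high in dividing cells, rose by 0.98, and Xrcc5, which encodes the Ku80 subunit of the end-joining complex, rose by 0.30. Of the 4 genes of the surrogate light chain list, only Vpreb3 was tested, and it fell with a log2 fold change of -0.71 (adjusted p = 0.00461, edgeR). Rag1 and Vpreb3 also belong to the transitional B cell markers above, so their values are not separate observations.

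Among 16 transcription factors known to act on the kappa locus or its enhancers, 1 was higher and 8 were lower, with a median log2 fold change of -0.20, beside 21.1% higher and 18.9% lower over all tested genes. Pou2af1, the coactivator of octamer factors at immunoglobulin promoters, was the one that rose, with 21331 and 21765 counts in WT and 34678 and 32857 in △POZ (log2 fold change 0.55, SE 0.05). Its partners Pou2f2 and Pou2f1 fell, with log2 fold changes of -0.60 and -0.71. Pax5 (-0.46), Ebf1 (-0.48) and Foxo1 (-0.55), which establish B cell identity or drive Rag expression, fell as well, as did Spib (-0.25), Irf8 (-0.19) and Yy1 (-0.21). Irf4, which acts at the kappa 3′ enhancer, was not called (log2 fold change -0.09), and Ctcf at -0.16 was not called either. Pax5 and Ebf1 also belong to the pan-B cell genes above, and Irf4 to the plasma cell markers.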

How the data were processed

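The authors trimmed paired-end reads with Trimmomatic, aligned them to mm10 with TopHat2 (version 2.1.0 in the submitters' processing notes) and counted them on Ensembl genes with HTSeq. They deposited raw counts per gene, neither normalized nor pooled. The strand setting and the Ensembl release were not given in the sources used here. Symbols for 40254 of the 41214 genes came from GENCODE annotation of GRCm38, and coding sequences from its transcripts. Only genes that reached 10 counts in 2 or more libraries entered the test with edgeR version 4.0.16 (TMM, quasi-likelihood test, genotype as the only term), and p-values of all 14554 genes were adjusted together after Benjamini-Hochberg. The threshold was an adjusted p of 0.05. Leaving out a library left 1 in its genotype, which was assumed to vary like the others. Nothing states from how many animals a library came beyond "biological duplicate", so p-values measure the spread between these libraries. The edgeR and DESeq2 fits were tried on simulated counts with the same dispersion for every gene. That setting does not cover the wide spread of the members between replicates. Shares, windows and effective numbers were not simulated.

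Usage shares were member counts over the summed member counts of a library, and families and windows of 0.5 Mb were described without a test. Named members were the 10 with the largest mean share, up to 5 higher and 5 lower called members with no overlap between genotypes, taken by p, the 3 higher and 3 lower ones of smallest p after scaling to the Igkv sum, and the segments nearest to and farthest from Igkj1. Alternatives were DESeq2's size factors, library sizes without immunoglobulin segments, DESeq2's Wald test (version 1.42.0), other count filters, a replicate block and leaving out each library. A robust edgeR fit and the removal of members that differed over 2-fold between replicates were added after seeing the data. Members, lists and tests were chosen with earlier results of these data known.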

Additional observations from a re-analysis of the deposited data

How the results depend on the processing

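The 43 members called higher and 1 called lower became 43 and 1 with DESeq2's size factors or with library sizes without immunoglobulin segments, and 44 of the 44 calls were shared in each. DESeq2's Wald test gave 38 higher and 1 lower, beside 2665 and 2401 of all tested genes. A mean filter of 100 counts gave 40 and 1 of 72 members, beside 2636 and 2251 of 11160 genes. The robust fit gave 35 and 1, beside 3093 and 2812 of all tested genes. With no filter on counts 46 members were higher and 2 lower, beside 3079 and 2873 of 21025 genes. Leaving out 1 library gave 20 to 48 higher and 0 to 2 lower, with the fewest higher without WT replicate 1 and 0 lower without WT replicate 2. After scaling to the summed Igkv counts, the 13 higher and 31 lower calls became 6 higher with DESeq2's Wald test, 7 higher in the robust fit, and 5 to 10 higher and 7 to 36 lower when 1 library was left out. Of the 19 named members, 13 were called by edgeR, 8 in the robust fit and 8 to 14 without 1 library.

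Libraries of the genotypes share replicate numbers, but deviations from the genotype means correlated at -0.07 over tested genes, and with 2 pairs this gives no ground for pairing. Over the 92 members, log2 differences between replicates 2 and 1 correlated at 0.24 between the genotypes, and the 4 members over 2-fold in both were higher in replicate 2 in each. With a replicate block, 46 members were called higher and 1 lower, beside 2633 and 2099 of all tested genes. Of these member calls 42 were shared with the 44, and Igkv3-4 was called (log2 fold change 0.88). After scaling to the Igkv sum the block gave 12 and 29 members, beside 866 and 10724 of all tested genes.

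The log2 fold change turned when 1 library was left out for 4 named members, none of them called with all libraries. It ran from -0.21 (without △POZ replicate 2) to 1.78 for Igkv3-4, from -0.037 (without WT replicate 1) to 1.47 for Igkv12-46, from -0.32 (without WT replicate 1, and -0.23 without △POZ replicate 1) to 1.55 for Igkv3-2, and from -0.205 to 0.0056 (without WT replicate 1) for Igkv6-17. The cause was not tested.

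The ratio of summed CPM, 1.81, was 1.65 to 2.01 without 1 library, 1.79 without Igkv3-4, 1.65 without the members over 2-fold between replicates and 1.02 per Igkc count, where the divisor itself rose. The loss of share of family 1 went from -1.59 to -0.42 percentage points without those members, and the gain of the opposite orientation from 2.81 to 0.68, or 3.79 without Igkv3-4. Without 1 library, the mean distance differed by -68.5 to 77.4 kb, the share within 0.5 Mb by -6.82 to -0.167 points, the opposite orientation by 2.13 to 3.48, and families 1, 3, 4 and 5 by -2.18 to -0.99, -4.00 to 1.91, 0.02 to 3.80 and 1.01 to 9.999 points. Families 6, 8, 10, 12 and 14 differed by -2.91 to -0.272, -2.92 to -1.60, -1.73 to 0.369, -3.07 to 0.412 and 1.08 to 2.75 points. Adding the pseudogenes or weighting by exon length moved no share beyond the spread between replicates.

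Depth limits the 20 members with a mean under 100 counts. Near-identical segments can lose reads that align to more than 1 place, by an amount that is not known here.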
